A study of Mus musculus with 30 samples.

Results

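The MBD2t line is a mouse embryonic stem cell (ESC) line that lacks functional *Mbd3* and carries a transgene for MBD2t, a truncated isoform of MBD2 without the C-terminal coiled coil, which binds the GATAD2 and CHD remodelling subunits of the nucleosome remodelling and deacetylation (NuRD) complex. Its 3 RNA sequencing libraries were compared with the 3 libraries of wild-type (WT) cells over all genes of the count table. These 6 libraries were chosen by line, from 24 libraries with counts and 30 labelled samples in the series. WT cells were HA36CB1 ESCs, a line of mixed 129 and C57BL/6 descent. The *Mbd3* knockout (KO) was made in these ESCs by CRISPR, and the MBD2t line was made from it by placing a tagged MBD2t sequence under the strong, ubiquitous CAG promoter at a defined genomic site by Cre recombinase-mediated cassette exchange; the ESCs used for this exchange carry the biotin ligase BirA. Endogenous *Mbd2* was not targeted in any of the 3 lines. Every library was polyadenylated RNA of cells taken through neuronal differentiation and collected as ES-derived neural progenitor cells. The 3 MBD2t libraries were repeats of a single clone, whereas the WT and *Mbd3* KO libraries came from separately derived clones, so an effect of the construct and a property of that clone cannot be told apart, and the spread among MBD2t libraries leaves out differences between clones.

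NuRD joins a chromatin remodelling ATPase (CHD3, CHD4 or CHD5) and the histone deacetylases HDAC1 and HDAC2 in a complex that lowers transcription at promoters and enhancers. MBD2 and MBD3 occupy the same place in it and exclude each other, and MBD2 binds methylated CpG sites whereas mammalian MBD3 does so poorly. In stem cells NuRD is known to restrain pluripotency genes so that cells can respond to differentiation signals, and methylated CpG promoters of germline genes are a classical group kept silent in somatic cells.

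The libraries of MBD2t and WT held between 35182427 and 46121563 counts. Values are CPM, the counts of a gene per 1000000 counts of the library after scaling for library composition, and a count of 3 corresponded to 0.0607 to 0.0825 CPM in these libraries. A gene was called where the adjusted p of edgeR's quasi-likelihood test was below 0.05 and the log2 fold change (MBD2t minus WT) was beyond 1 in size, and a given error is the standard error (SE) of that log2 fold change with n = 3 libraries per line. Genes were named by a rule given with the processing, and further members of a list were named for their known role after their values were seen. WT library s03 stood apart from WT libraries s01 and s02: the summed level of 38 postmitotic neuron genes was 4172 CPM in s03 against 9891 and 8203 CPM, and that of 28 pluripotency genes was 509.5 against 251.0 and 327.2 CPM. *Mbd3* KO library s04 stood apart from s05 and s06, with 2333 CPM of the same pluripotency genes against 1362 and 1027 CPM. Many genes named here share positions with annotated RNAs of the opposite strand, and *Il10rb* and *Ifnar2*, *Irf9* and *Rnf31*, *Tapbp* and *Zbtb22*, and *Sox2* and *Sox2ot* overlap on the same strand, so their reads may be shared. The median standard deviation of log2 CPM within a line was 0.0726 for MBD2t, 0.29 for WT and 0.185 for the *Mbd3* KO.

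Counts of *Mbd3* itself were 69, 77.5 and 74.1 CPM in the MBD2t libraries and 155, 149 and 157 CPM in WT, a called fall of 1.06 on the log2 scale (SE 0.27, adjusted p = 0.0024). Scaled by library size only, the log2 fold change was -0.91 and the call was lost, as it was in a test against a minimum change of 1. The *Mbd3* KO libraries were at 34.2, 73.8 and 69.1 CPM. Reads of all exons are summed in these counts, so they do not show whether the targeted exons were absent. *Mbd2* stood at 335, 356 and 340.1 CPM in MBD2t against 40.8, 50.5 and 43.9 CPM in WT and 65.3, 64.2 and 70.9 CPM in the *Mbd3* KO. All 3 MBD2t libraries were thus above all others, by 7.63-fold over WT (log2 fold change 2.93, adjusted p = 2.2e-08), and reads of the transgene and of the endogenous gene cannot be told apart in the count.

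Expression in the MBD2t line differed from WT in neural gene groups, which were mostly lower, and in pluripotency, trophoblast, epithelial, interferon and germline gene groups, which were mostly higher. Of 16582 genes tested, 5531 were called (33.4%), 3026 of them higher (18.2%) and 2505 lower (15.1%) in MBD2t. For 69.2% of the genes tested, and for 98.7% of the called genes, the 3 MBD2t libraries did not overlap the 3 of WT. Among the called genes, 744 were higher by more than 3 on the log2 scale and 604 were lower by more than 3. The median log2 fold change over all genes tested was -0.0358. Because each library is a bulk RNA sample, fewer cells of a type and less RNA per cell cannot be told apart in any of these values.

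**Figure D1:**
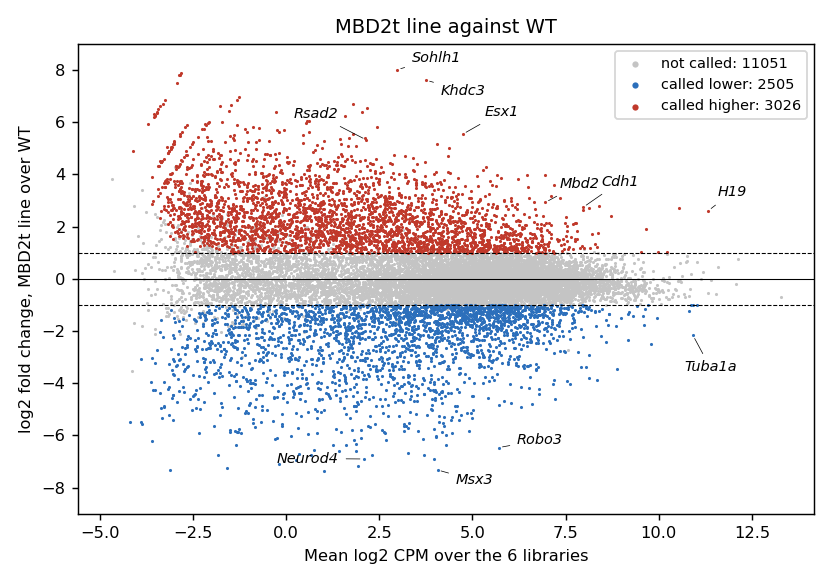
Log2 fold change (MBD2t line over WT, y axis) of 16582 genes against their mean log2 CPM over the 6 libraries (x axis). Red points are the 3026 genes called higher and blue points the 2505 called lower; dashed lines mark a log2 fold change of 1 and -1, and *Sohlh1* at 8.02 and *Msx3* at -7.32 are among the points farthest from 0.

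Proneural transcription factors, which drive progenitors out of the cell cycle and into neuronal differentiation, fell to low levels in MBD2t. Of 19 tested members of the list, 17 fell and none rose (median log2 fold change -4.57), beside 15.1% called lower over all genes. *Neurog1*, a basic helix-loop-helix factor that starts sensory and spinal neurogenesis, was at 125, 176 and 100.3 CPM in WT and 1.79, 1.80 and 2.37 CPM in MBD2t (log2 fold change -6.07, SE 0.56, adjusted p = 1.5e-07). Its relative *Neurog2* went from 48.3, 75.4 and 33 CPM to 0.624, 0.398 and 0.425 CPM (-6.74, SE 0.54, adjusted p = 3.4e-08). *Neurod4*, a later factor of the same family, was at 45.8, 63.4 and 31.8 CPM in WT and at 0.312, 0.292 and 0.546 CPM in MBD2t (-6.90, SE 0.59, adjusted p = 6.4e-08). For none of these genes did the lines overlap, as for 98.7% of all called genes and 69.2% of all genes tested. The 3 MBD2t libraries, repeats of a single clone, lay close together. *Bhlhe22* fell by 6.08. *Neurog3* and *Neurod2*, the members that did not pass, had WT means of 0.579 and 0.429 CPM.

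Genes of the neural progenitor itself fell as well, although unevenly. Among 18 tested progenitor and radial glia genes 16 fell and none rose (median -2.71), beside 15.1% called lower over all genes. *Fabp7*, a fatty acid binding protein of radial glia, was at 65.7, 41.3 and 35.7 CPM in WT and at 0.333, 0.159 and 0.445 CPM in MBD2t, a fall of 7.19 (SE 0.62, adjusted p = 7.3e-08). *Pax6*, which specifies neural progenitors and is used as their marker, was at 142, 168 and 197 CPM in WT and at 17.6, 16.7 and 20.3 CPM in MBD2t (-3.21, SE 0.46, adjusted p = 1.2e-05). An RNA on the opposite strand, *Pax6os1*, overlaps *Pax6*, and the strand setting of the counting was not given in the sources used here. *Pou3f3* (-5.42), *Ednrb* (-5.83) and *Nes* (-1.89), which encodes nestin, fell as well. *Sox2*, shared by pluripotent cells and neural progenitors, did not pass the fold threshold, with 277, 264 and 266 CPM in WT and 159.5, 154 and 132 CPM in MBD2t (log2 fold change -0.86, adjusted p = 0.02). *Mfge8*, the other member not called, had a log2 fold change of 0.83 (adjusted p = 0.031). The summed level of the list was 690.7, 682.5 and 725.1 CPM in MBD2t and 3460, 3274 and 2670 CPM in WT. The label of neural progenitor cells therefore met its defining markers at high levels in WT, whereas in the MBD2t line *Sox2*, *Nes* and *Pax6* were detected and *Fabp7*, *Hes5* and *Zic1* were below 2 CPM in every library.

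Notch signalling keeps neural progenitors uncommitted, with Delta ligands on one cell and *Hes5* as the output in its neighbour. Of 25 tested pathway genes, 13 fell and 1 rose (median -1.33), beside 15.1% called lower and 18.2% called higher over all genes. The ligand *Dll1* was at 144, 115 and 97.9 CPM in WT and at 3.47, 2.36 and 3.17 CPM in MBD2t (-5.30, SE 0.37, adjusted p = 6.9e-09), and *Dll3* fell by 3.96. Of the receptors, *Notch1* fell by 1.94 and *Notch3* by 1.33, while *Notch2* had a log2 fold change of 0.27 and was not called. The target *Hes5* went from 87.8, 99.6 and 135 CPM to 1.44, 1.19 and 1.96 CPM (-6.12, SE 0.44, adjusted p = 9.6e-09), and the feedback inhibitor *Nrarp* fell by 3.28. *Rbpj*, the DNA-binding effector of the pathway, was not called (-0.25, adjusted p = 0.22), and *Heyl* was the member that rose (2.18). Reads of *Hes5* and *Dll1* can include those of annotated RNAs on the opposite strand.

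Position along the neural tube was read from patterning and Hox genes. Dorsal identity genes led the falls: *Msx3* was at 289, 219.8 and 150.3 CPM in WT and 1.69, 0.848 and 1.52 CPM in MBD2t (-7.32, SE 0.57, adjusted p = 2.6e-08), and *Pax3* at 216, 161 and 139.9 CPM and 1.60, 1.09 and 1.62 CPM (-6.89, SE 0.56, adjusted p = 3.6e-08). *Zic1* fell by 6.74 and *Pax7* by 5.55, the former next to *Zic4* on the opposite strand. Of 24 tested dorsoventral genes 17 fell and 5 rose (median -2.01), beside 15.1% called lower and 18.2% called higher over all genes. The 5 that rose were *Gli1* (2.10), *Ptch1* (1.16), *Foxa2* (1.77), *Lmx1b* (1.42) and *Lmx1a* (1.38), of which *Gli1* and *Ptch1* are known transcriptional targets of Hedgehog signalling and *Foxa2* is a gene of the floor plate and of endoderm. Hox genes, which assign hindbrain and trunk position, fell in 21 of 32 tested members with 1 rise (median -2.45). *Hoxa6* was at 121, 109.7 and 46.7 CPM in WT and at 1.96, 1.01 and 1.84 CPM in MBD2t (-5.83), and *Hoxd3* at 459.9, 437 and 398 and 13.4, 13.7 and 15.8 CPM (-4.91). The anterior and early *Hoxb1* was the one that rose (1.03, adjusted p = 0.017). Hox genes overlap one another and antisense RNAs, so their counts may share reads.

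Retinoic acid, the signal given to drive this differentiation, is read by a pathway in which the MBD2t line differed in both directions. Of 19 tested genes 4 rose and 8 fell, with a median of -0.0569, beside 18.2% called higher and 15.1% called lower over all genes. The receptor gene *Rarb*, itself a direct retinoic acid target, fell from 342, 327 and 208 CPM to 64.7, 65 and 72.1 CPM (-2.12, SE 0.29, adjusted p = 6.6e-06). *Cyp26a1*, which encodes the enzyme that degrades retinoic acid and is another direct target, was at 409, 375 and 488 CPM in WT and 521, 538 and 538 CPM in MBD2t and was not called (0.33, adjusted p = 0.28). *Stra8*, a retinoic acid target best known from the entry into meiosis, was at 32.4, 109 and 333 CPM in WT and 1047, 1096 and 1127 CPM in MBD2t (2.79, SE 0.84, adjusted p = 0.008). The WT libraries spread widely for *Stra8*, with s03 highest, yet all stayed below the MBD2t libraries. The serum carrier *Rbp4* rose by 3.64 (SE 1.15, adjusted p = 0.01) and the synthesis enzyme *Aldh1a2* by 2.35 (adjusted p = 0.016, and 0.0604 without WT library s03).

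Genes of postmitotic neurons gave more falls than any other list tried. Of 38 tested, 37 fell and none rose, with a median log2 fold change of -4.02, beside 15.1% called lower over all genes. Their summed level was 649.5, 629.2 and 729.2 CPM in the MBD2t libraries, below each of the WT libraries given above. *Robo3*, the axon guidance receptor of commissural neurons, was at 794, 447 and 298 CPM in WT and 6.05, 5.17 and 6.19 CPM in MBD2t (-6.46, SE 0.77, adjusted p = 1.8e-06). *Lhx5*, a LIM homeodomain factor of interneurons, fell by 5.88, the zinc finger gene *Myt1* by 5.64 and its relative *St18* by 5.82. The cytoskeletal genes *Tubb3* (-3.39), *Map2* (-4.42) and *Dcx* (-4.66) and the synaptic gene *Snap25* (-4.88) were also among the falls. *Ncam1*, which encodes the surface protein CD56, was at 261, 215 and 85.2 CPM in WT and 15.6, 14.3 and 15.4 CPM in MBD2t (-3.62, SE 0.47, adjusted p = 4.1e-06). *Cd24a*, the other surface marker of this differentiation, went from 576, 592 and 422 CPM to 231, 226 and 262 CPM (-1.14, SE 0.18, adjusted p = 2.5e-05), a call that was lost with scaling by library size only (-0.98) and in a test against a minimum change of 1 (adjusted p = 0.275). *Isl1* was the 1 member not called, at a WT mean of 1.01 CPM. *Akap6*, an anchoring protein of muscle and neurons that is in none of the lists, was another of the largest falls, from 102, 73 and 14.9 CPM in WT to 0.873, 0.583 and 1.13 CPM in MBD2t (-6.17), and *Prdm13*, a factor that selects inhibitory neuron fate, fell by 6.66 (SE 0.65, adjusted p = 2.7e-07).

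**Figure D2:**
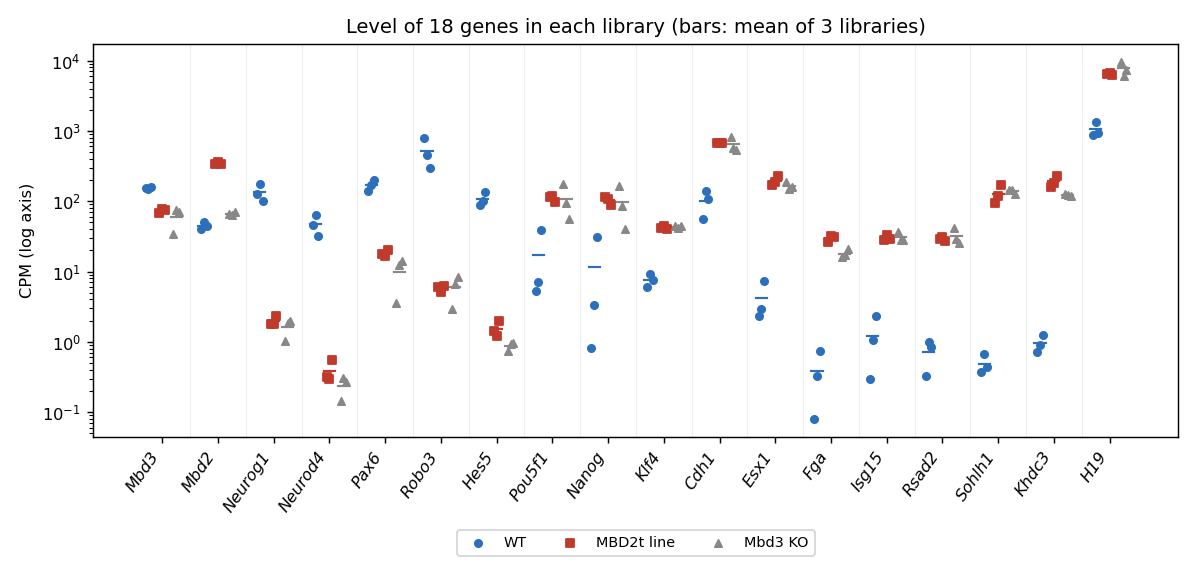
CPM on a log axis of 18 genes in each of the 3 WT (blue circles), 3 MBD2t (red squares) and 3 *Mbd3* KO (grey triangles) libraries, with a bar at the mean of each line. WT lies apart from MBD2t for all 18 genes, as for 98.7% of all called genes and 69.2% of all genes tested. MBD2t, at 335, 356 and 340.1 CPM, stands above both other lines for *Mbd2*, the only one of the 18 called between MBD2t and the *Mbd3* KO.

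In the opposite direction, genes of the pluripotency network were higher in the MBD2t line. Of 28 tested genes 23 were called higher and none lower (median 2.61), beside 18.2% called higher over all genes. *Pou5f1*, which encodes OCT4, was at 5.26, 7.15 and 38.7 CPM in WT and 114, 117 and 96.3 CPM in MBD2t (2.67, SE 0.78, adjusted p = 0.0064). *Nanog* was at 0.805, 3.33 and 30.6 CPM in WT and 115, 108 and 88.2 CPM in MBD2t (3.15, SE 1.16, adjusted p = 0.025). WT library s03 held the highest level of both genes within WT and still lay below the MBD2t libraries. The call of *Nanog* was lost without WT library s01 (adjusted p = 0.0823) or without s02 (0.0869). It was also lost in a test against a minimum change of 1 (adjusted p = 0.0944). *Klf4*, a naive pluripotency factor, was at 5.99, 9.19 and 7.60 CPM in WT and at 41.5, 45 and 40.4 CPM in MBD2t (2.48, SE 0.66, adjusted p = 0.0033). *Tfcp2l1* (3.52), *Zfp42* (3.52), *Tdgf1* (3.87) and *Dnmt3l* (4.07) rose further. *Stat3* and *Socs3*, members of the LIF signalling arm, had log2 fold changes of 0.85 and 1.09 and were not called. The pluripotency list held 23 called members with all libraries, 18 without WT library s01, 18 without s02 and 25 without s03.

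Epiblast and primitive streak genes followed in part, with 8 of 16 tested higher and 2 lower (median 1.18). Over all genes 18.2% were called higher and 15.1% lower. *Nodal*, the ligand of the early epiblast, rose by 2.45 and *Cdx1* by 3.22, whereas *Wnt3* fell by 3.58. *T*, the defining gene of the streak, was at 0.210 ± 0.0327 CPM (SD, n = 3) in WT and 0.720 ± 0.168 CPM in MBD2t. *Lefty2* and *Pou3f1* were not called (0.82 and -0.55), and the call of *T* made it one of the 8 that rose (1.75).

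Extraembryonic genes were among the largest rises of the comparison, led by those of trophoblast, the lineage that forms the placenta. Of 26 tested trophoblast genes 24 rose and none fell, with a median of 3.36, beside 18.2% called higher over all genes. *Esx1*, an X-linked homeobox gene of the placenta, was at 2.31, 2.94 and 7.23 CPM in WT and 173, 189 and 228 CPM in MBD2t (5.55, SE 0.56, adjusted p = 3.6e-07). The placental hormone gene *Prl2c2* was at 0.215, 1.02 and 0.268 CPM in WT and 58.2, 40.2 and 26.4 CPM in MBD2t (6.39, SE 0.59, adjusted p = 1.3e-07), and *Prl2c3*, a near-identical copy of it that may share its reads, had a log2 fold change of 6.54. *Eomes*, a factor of trophoblast stem cells and of the streak, was at 0.456, 0.633 and 0.730 CPM in WT and 12.9, 13.3 and 11.4 CPM in MBD2t (4.35). Early factors (*Cdx2* at 1.62, *Gata3* at 1.57, *Tfap2c* at 3.57) and genes of later placental cells (*Gcm1* at 4.49, *Prl3d1* at 6.04) were both represented. *Wnt7b* and *Tpbpa* were not called. The summed level of the list was 5539, 5587 and 5144 CPM in MBD2t and between 509.2 and 1039 CPM in WT.

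Endoderm genes moved less uniformly. Of 22 tested genes of primitive and parietal endoderm 6 rose and 2 fell (median 0.803), beside 18.2% called higher and 15.1% called lower over all genes. In place of 8, this list held 5 called members without WT library s03. It held 3 under a test against a minimum change of 1 and 12 with only the 2 lines compared. *Nid1*, a basement membrane protein, was at 42.6, 51.5 and 29 CPM in WT and 223, 228 and 193 CPM in MBD2t (2.39, SE 0.69, adjusted p = 0.0057), and *Thbd* rose by 2.47. *Gata4*, *Gata6* and *Sox7*, the defining factors of the lineage, had log2 fold changes of 0.15, 0.44 and 0.04 and were not called, nor were the abundant collagens *Col4a1* (0.94) and *Col4a2* (1.05, although called at 1.07 with only the 2 lines compared), and *Sox17* fell by 1.28. Among 21 tested genes of visceral endoderm and yolk sac plasma proteins 7 rose and 1 fell (median 1.04). The fibrinogen chain *Fga* was at 0.0805, 0.330 and 0.730 CPM in WT and 26.3, 31.9 and 30.7 CPM in MBD2t (6.24, SE 0.97, adjusted p = 2.8e-05), and *Fgg* (3.98) and transferrin (*Trf*, 4.28) rose as well. *Afp* and *Ttr*, which define visceral endoderm, were at 3.35 ± 0.552 and 2.43 ± 0.596 CPM (SD, n = 3) in MBD2t and were not called.

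All 22 epithelial genes tested rose, with a median of 2.32 and a range from 1.02 for *Cldn3* to 3.84 for *Krt7*. *Cdh1*, which encodes E-cadherin, was at 56.2, 138 and 107 CPM in WT and 671, 683 and 665 CPM in MBD2t (2.75, SE 0.39, adjusted p = 1.1e-05). The keratin gene *Krt7* was at 10.9, 27.6 and 22.6 CPM in WT and 288, 317 and 271 CPM in MBD2t (3.84, SE 0.68, adjusted p = 8.9e-05). No MBD2t library overlapped WT for any of the 22 genes, as for 98.7% of all called genes and 69.2% of all genes tested. *Cdh2*, the N-cadherin gene of the neural epithelium, fell by 3.33. Among 27 tested genes of mesenchyme and extracellular matrix 3 rose and 11 fell (median -0.96), with *Col3a1* at -4.01, *Col5a2* at -2.27 and *Prrx1* at -3.70, while *Fn1* was not called (0.26, adjusted p = 0.38). Of 19 tested endothelial and blood cell genes 8 rose, none fell and 11 were not called (median 1.05). *Cdh5* rose by 1.81, *Tek* by 2.89 and the macrophage gene *Cd68* by 2.22, whereas *Kdr*, which marks endothelial progenitors, had a log2 fold change of 0.04. *Ptprc* of the same list had 0 counts in every WT library and 1, 1 and 0 counts in the MBD2t libraries, and was not tested. Of 12 neural crest genes 3 rose and 5 fell (median -0.207), and *Sox10* (4.36) and *Foxd3* (-4.70) lay on opposite sides. Over all genes 18.2% were called higher and 15.1% lower. Summed levels in MBD2t and WT, each as a range over 3 libraries, were 2421 to 2540 against 1356 to 1711 CPM for primitive and parietal endoderm, 148.5 to 171.4 against 31.48 to 69.27 CPM for visceral endoderm, 3994 to 4305 against 436.7 to 927.8 CPM for epithelial genes and 232.4 to 250.8 against 101.9 to 120.4 CPM for endothelial and blood cell genes. Those of mesenchyme genes overlapped, at 828.1 to 889.7 against 500.1 to 1189 CPM, and those of neural crest genes were lower in MBD2t, at 170.7 to 199.5 against 255.2 to 512.2 CPM. The part of such cells in the other differences from WT was not tested.

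**Figure D3:**
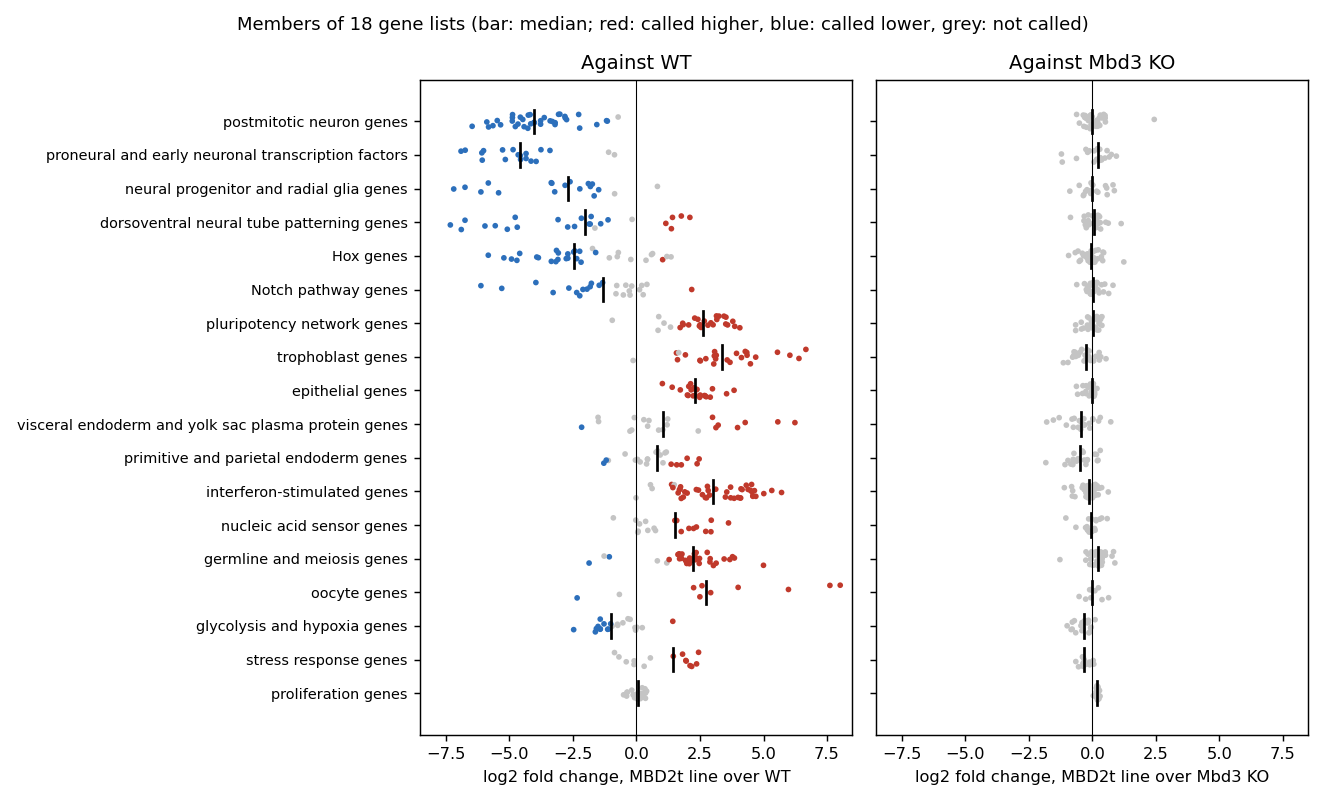
Log2 fold changes of the tested members of 18 gene lists, MBD2t over WT on the left and MBD2t over *Mbd3* KO on the right (x axes, same scale); points are genes, coloured by call, and black bars are medians. Against WT the medians run from -4.57 for proneural factors to 3.36 for trophoblast genes, whereas against the *Mbd3* KO the medians shown lie between -0.479 and 0.235 and no point is called.

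Interferon-stimulated genes are normally induced when a cell senses foreign nucleic acid and signals through type I interferon to STAT and IRF transcription factors. In MBD2t they were higher almost throughout: of 46 tested 42 rose and none fell, with a median of 3.00 beside -0.0358 over all genes. The share called higher over all genes was 18.2%. *Rsad2*, which encodes the antiviral enzyme viperin, was at 0.322, 0.990 and 0.852 CPM in WT and 29.1, 31.2 and 27.1 CPM in MBD2t (5.33, SE 0.73, adjusted p = 7.3e-06). The ubiquitin-like modifier *Isg15* was at 0.295, 1.04 and 2.34 CPM in WT and 28.4, 32.7 and 28.8 CPM in MBD2t (4.58, SE 0.74, adjusted p = 3.9e-05). *Ifit3*, a protein that binds viral RNA complexes, was at 0.349, 0.715 and 0.584 CPM and 13.9, 14.2 and 14.9 CPM (4.70), and the nucleic acid sensor *Zbp1* at 0.429, 0.633 and 0.828 CPM and 15.1, 15.4 and 15.2 CPM (4.58). None of these 4 genes overlapped between the lines, as for 98.7% of all called genes and 69.2% of all genes tested. Of the factors that carry the signal, *Irf7* rose by 5.01 and *Irf9* by 1.44, while *Stat2* was not called (0.55, adjusted p = 0.023). *Ifitm2*, a member of the list with a high level in WT, stood at -0.02.

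The sensors upstream and the ligands were read separately. Of 19 tested nucleic acid sensor genes 10 rose and none fell (median 1.51). *Ifih1*, the MDA5 sensor of long double-stranded RNA, was at 2.15, 2.09 and 3.17 CPM in WT and 19.3, 19.3 and 18.2 CPM in MBD2t (2.93, SE 0.35, adjusted p = 2.0e-06). *Sting1* (2.94), *Ddx58*, the RIG-I gene (2.36), and *Irf1* (2.73) also rose, whereas *Cgas* (0.05), *Mavs* (0.12) and *Irf3* (0.07) were not called. *Ifnb1*, *Ifna2* and *Ifna4* had 0 counts in all 9 libraries of WT, MBD2t and *Mbd3* KO, which allows a level of up to 0.0858 CPM in the library with the fewest counts. Other ligand genes had a few reads and were not tested. *Ifnl2* had 1 count each in MBD2t libraries s22 and s23 and *Mbd3* KO library s06. *Ifnl3* had 1 count in s22, and *Ifng* had 1 in s22 and 2 in *Mbd3* KO library s05. All WT libraries had 0 counts of them. Of 10 tested genes of interferon receptors and their signalling 3 rose and none fell (median 0.418), namely *Il10rb* (2.27), *Socs1* (1.56) and *Ifnlr1* (1.44). Over all genes 18.2% were called higher and 15.1% lower. The receptor *Ifnar1* was at -0.01 (adjusted p = 0.95). Of 16 tested genes of MHC class I antigen presentation 10 rose and none fell (median 1.22). The immunoproteasome subunit *Psmb8* rose by 2.63 (SE 0.41, adjusted p = 2.5e-05) and the peptide-loading chaperone *Tapbp* by 2.20, and *B2m* did not pass the fold threshold (0.89, adjusted p = 0.013). The H2 genes of this list are close copies of one another and may share reads.

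The letters of an interferon-stimulated response element (ISRE), the site through which interferon acts on promoters, were searched as GAAA, any 2 bases and GAAA again, on both strands, in the window of 250 bases before to 50 bases after each annotated gene start in mm9. They occurred in 22 of 46 tested interferon-stimulated genes (47.8%) and in 3.24% of all 16572 tested gene symbols, each counted once. Among all genes called higher the share was 4.60%. Promoters of 3 of the genes above are shown for this reason, as the 250 bases before the RefSeq gene start, 5′ to 3′ on the strand of the gene, with the ISRE letters, or their complement TTTC, any 2 bases and TTTC, in capitals. The sequences are from RefSeq (GRCm38.p6), and their positions in mm9 were found by exact match. *Isg15* holds 3 overlapping copies, *Ifit3* 2 copies and *Rsad2* 1 copy.
Isg15 (mm9 chr4:155574928-155575177, minus strand): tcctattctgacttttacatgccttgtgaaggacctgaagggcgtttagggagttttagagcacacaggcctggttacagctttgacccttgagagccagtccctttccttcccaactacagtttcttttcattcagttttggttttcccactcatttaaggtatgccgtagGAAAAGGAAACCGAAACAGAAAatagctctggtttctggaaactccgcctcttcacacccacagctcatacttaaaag
Ifit3 (mm9 chr19:34657769-34658018, plus strand): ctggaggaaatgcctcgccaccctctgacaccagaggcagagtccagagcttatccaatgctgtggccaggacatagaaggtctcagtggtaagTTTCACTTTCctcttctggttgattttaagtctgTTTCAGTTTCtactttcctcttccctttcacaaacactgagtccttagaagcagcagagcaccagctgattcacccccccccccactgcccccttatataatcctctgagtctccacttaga
Rsad2 (mm9 chr12:27141318-27141567, minus strand): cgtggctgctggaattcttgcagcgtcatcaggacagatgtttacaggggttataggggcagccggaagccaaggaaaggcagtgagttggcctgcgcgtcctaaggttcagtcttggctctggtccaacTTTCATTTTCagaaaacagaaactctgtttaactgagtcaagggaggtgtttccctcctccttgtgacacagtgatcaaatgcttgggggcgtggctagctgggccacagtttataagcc

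Germline genes, silent in most somatic cells, were largely higher as well. Of 36 tested germline and meiosis genes 31 rose and 2 fell (*Tdrd9* at -1.86 and *Brdt* at -1.07), with a median of 2.23. The shares called over all genes were 18.2% higher and 15.1% lower. *Sohlh2*, a basic helix-loop-helix factor of early germ cell differentiation, was at 0.698, 2.42 and 11.3 CPM in WT and 156, 154 and 157 CPM in MBD2t (5.0, SE 0.88, adjusted p = 9.0e-05). Its partner *Sohlh1* was at 0.376, 0.660 and 0.438 CPM in WT and 95.4, 120.0 and 167 CPM in MBD2t, the largest log2 fold change of all genes tested (8.02, SE 0.41, adjusted p = 1.4e-10). *Tex11*, a protein of meiotic recombination, *Taf7l*, a germ cell form of a general transcription factor subunit, and *Fkbp6*, a chaperone of the piRNA pathway, rose by 3.86, 3.78 and 3.45. *Dazl*, a translational regulator of germ cells, rose by 3.14 and *Ddx4*, the germ cell helicase, by 2.04. WT library s03 was the highest WT library for *Sohlh2*, and without it 35 germline genes were called in place of 33.

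Of 22 oocyte genes in the table, 10 were tested, and of these 8 rose and 1 fell (median 2.75). The shares called over all genes were 18.2% higher and 15.1% lower. A gene with enough counts in any 1 line passed the filter. *Nobox* was thus tested, with 0, 1 and 5 counts in WT and 35, 35 and 50 in MBD2t. *Nlrp5* was not, with 7, 8 and 4 counts in WT and 9, 8 and 8 in MBD2t. The share that rose therefore depends in part on the filter. *Khdc3*, of the subcortical maternal complex of the egg, was at 0.725, 0.908 and 1.27 CPM in WT and 161, 184 and 228 CPM in MBD2t (7.61, SE 0.55, adjusted p = 1.2e-08), and *Tle6* of the same complex rose by 2.50. The model *Gm20509* overlaps *Khdc3* on the same strand and may share its reads. *Gdf9* fell by 2.33. *Aldh3b2*, an aldehyde dehydrogenase, was at 0.188, 0.935 and 1.29 CPM in WT and 39.8, 44.8 and 52.4 CPM in MBD2t (5.80, SE 0.60, adjusted p = 4.7e-07), and *Acan*, the cartilage proteoglycan aggrecan, rose by 5.39. These genes belong to none of the lists and were among the largest rises.

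The hexamer CACGTG, an E-box read by basic helix-loop-helix factors such as MYC and MAX, occurred on either strand in the same window in 17 of 36 germline genes (47.2%) and in 9.11% of all genes tested. It occurred in 8.89% of all genes called higher. The letters GCGGGAA, a core bound by E2F factors, occurred in 7 of the 36 (19.4%) and in 7.23% of all genes tested. Another E-box, CAGATG, which proneural factors bind, occurred in 6 of 19 proneural genes (31.6%), in 13.1% of genes called lower, in 14.7% of genes called higher and in 12.9% of all genes tested. Promoters of 3 germline and oocyte genes are printed as above, with CACGTG in capitals, because *Sohlh1* holds 3 copies, *Fkbp6* 2 copies and *Taf7l* 1 copy.
Sohlh1 (mm9 chr2:25702769-25703018, minus strand): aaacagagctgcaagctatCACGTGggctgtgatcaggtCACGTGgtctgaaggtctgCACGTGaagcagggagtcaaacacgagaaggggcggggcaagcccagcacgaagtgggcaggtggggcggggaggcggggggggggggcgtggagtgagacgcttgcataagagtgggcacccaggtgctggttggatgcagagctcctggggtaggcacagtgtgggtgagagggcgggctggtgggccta
Fkbp6 (mm9 chr5:135825915-135826164, minus strand): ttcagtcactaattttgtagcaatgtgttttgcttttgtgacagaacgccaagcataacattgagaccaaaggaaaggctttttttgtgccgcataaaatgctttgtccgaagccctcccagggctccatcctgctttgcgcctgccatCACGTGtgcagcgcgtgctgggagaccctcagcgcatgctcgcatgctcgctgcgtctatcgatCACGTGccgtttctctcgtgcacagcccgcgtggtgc
Taf7l (mm9 chrX:131011030-131011279, minus strand): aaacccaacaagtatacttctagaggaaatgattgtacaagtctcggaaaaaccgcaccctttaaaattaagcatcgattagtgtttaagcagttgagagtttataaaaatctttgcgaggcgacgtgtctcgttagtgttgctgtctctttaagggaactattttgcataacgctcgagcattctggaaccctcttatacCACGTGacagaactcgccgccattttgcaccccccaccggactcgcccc

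CpG content around the gene start, which the comparison had not used, was lower for genes that rose than for genes that fell. It was taken as the observed over expected number of CpG sites within 500 bases on each side of the annotated start. Genes called higher had a median ratio of 0.45, genes called lower 0.65 and genes not called 0.716. In the class of low content (ratio under 0.48, 4747 genes) 33.9% of genes were called higher (95% Wilson interval 32.5 to 35.2) and 14.5% lower (13.5 to 15.5). In the class of high content (over 0.75, 6078 genes) 8.11% were called higher (7.45 to 8.82) and 13.1% lower (12.3 to 14). In the intermediate class of 5750 genes, 16.1% were called higher (15.1 to 17) and 17.8% lower (16.8 to 18.8). Genes are not independent replicates, and the intervals cover counting error only. Interferon-stimulated genes lay at a median ratio of 0.299 with 34 of 46 in the low class, germline genes at 0.644 with 7 of 36 in it, and proneural factors at 0.684 with 4 of 19.

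**Figure D4:**
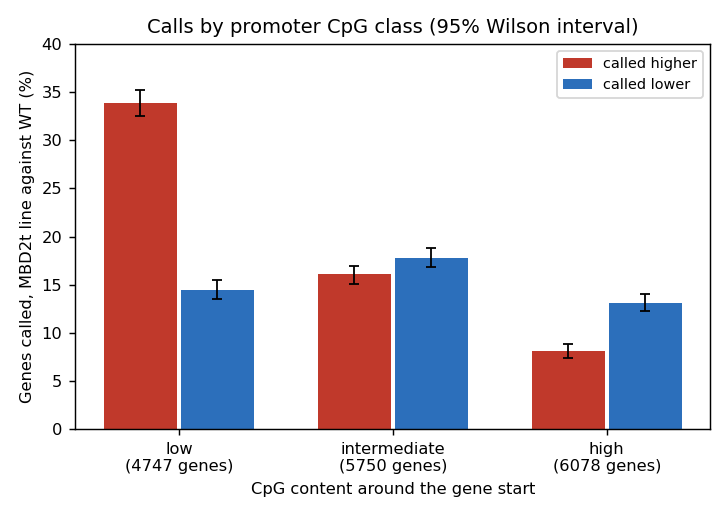
Share of genes called higher (red) and lower (blue) in MBD2t against WT (y axis, percent of tested genes, from 0) by class of CpG content around the gene start (x axis); error bars are 95% Wilson intervals. The red bar falls from 33.9% in the low class to 8.11% in the high class, and the blue bars stay between 13.1% and 17.8%.

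Imprinted genes, of which 1 parental copy is silenced, gave some of the largest changes in absolute level. *H19*, a noncoding RNA of the placenta and fetus, was at 868, 1349 and 937 CPM in WT and 6378, 6769 and 6139 CPM in MBD2t (2.61, SE 0.41, adjusted p = 3.0e-05). Its neighbour *Igf2*, a fetal growth factor, was at 509, 498 and 265 CPM and 1664, 1653 and 1491 CPM (1.92, SE 0.51, adjusted p = 0.0035), and the retrotransposon-derived placental gene *Peg10* at 366, 832 and 598 CPM and 4079, 4071 and 3781 CPM (2.73). WT lay below MBD2t without overlap for all 3, and 98.7% of all called genes and 69.2% of all genes tested had no overlap. *Phlda2* rose by 4.69, *Ascl2* by 3.04 and the amino acid transporter *Slc38a4* by 2.63, genes that act in the placenta. Over the whole list the changes ran both ways, with 9 of 29 tested higher and 6 lower (median 0.0572), beside 18.2% and 15.1% over all genes. *Grb10* was lower in MBD2t, with 3660, 2643 and 3992 counts against 26347, 15380 and 14574 in WT. *Gnas* (-0.62) and *Peg3* (0.91) were not called.

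The other large changes in CPM, which are not corrected for gene length and so are not compared between genes, were those of general cell components. The mitochondrially encoded *COX1* was at 3242, 3843 and 3198 CPM in WT and 6023, 5778 and 5579 CPM in MBD2t, under the fold threshold (0.76, adjusted p = 0.0023). The median over the 13 mitochondrial protein genes was 0.868 on the log2 scale, and they made up 1.97% to 2.06% of the scaled library total in MBD2t against 1.04% to 1.30% in WT. The chaperone *Hsp90aa1* had a log2 fold change of 0.87. *Tuba1a*, an alpha tubulin of neurons, fell from 4523, 3852 and 3917 CPM to 912, 925 and 911 CPM (-2.16, SE 0.23, adjusted p = 6.1e-07), *Tuba1c* by 1.21 and *Tubb5* by 1.0, a call lost with RLE scaling, library size only, DESeq2 and other alternatives. The desaturase *Scd2*, of brain lipid synthesis, fell by 2.51, and the elongation factor *Eef1a1* was under the fold threshold (-0.71, adjusted p = 9.5e-04). Tubulin and elongation factor genes have close copies, which the counting may have split.

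Of 21 tested genes of NuRD and its partners 4 rose and 4 fell (median -0.331), shares close to the 18.2% called higher and 15.1% called lower over all genes. *Mbd2*, the gene the transgene derives from, and the targeted *Mbd3* were among the 8. The ATPase *Chd4* was at 1131, 1151 and 628 CPM in WT and 751, 756 and 800.1 CPM in MBD2t and was not called (-0.34, adjusted p = 0.14), nor was the histone chaperone *Rbbp4* (-0.33, adjusted p = 0.071). The deacetylase *Hdac2* fell by 1.29 and *Mta3* rose by 1.74, as did *Chd5* (1.84). The partner zinc finger genes *Sall3* (-4.09) and *Sall2* (-2.16) fell and the pluripotency factor *Sall4* rose (2.05). Of 16 DNA methylation genes 3 rose and 1 fell (median -0.0556). *Dnmt3l*, *Dnmt3b* (1.56) and *Zbtb38* (1.17) rose, while the maintenance enzyme *Dnmt1* (0.49) and *Dnmt3a* (-0.45) were not called.

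Genes of 3 signalling pathways that pattern the neural plate were counted beside the same 18.2% higher and 15.1% lower over all genes. In the BMP pathway and its Id targets 7 of 21 fell and none rose (median -0.533). *Id3* was at 226, 172 and 348 CPM in WT and 46.7, 47.8 and 54.3 CPM in MBD2t (-2.33), and the receptor *Bmpr1b* fell by 2.79, while *Bmpr1a* (-0.10) was not called. In the Wnt pathway 5 of 29 rose and 10 fell (median -0.658), with the dorsal midline ligand *Wnt1* at -5.26 and the receptors *Fzd3* and *Fzd10* at -3.25 and -2.91. In the FGF pathway 7 of 21 rose and 4 fell (median 0.15). The receptor *Fgfr3*, of neural progenitors, fell from 117, 129 and 92.9 CPM to 7.90, 7.16 and 9.40 CPM (-3.79, SE 0.26, adjusted p = 5.3e-09), whereas the ligand *Fgf4* and the effector *Etv5*, which ESCs express, rose by 3.79 and 2.93.

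None of 20 proliferation genes was called in either direction (median 0.0661), and 3 were under the adjusted p of 0.05 without the fold threshold. *Top2a* was at -0.36 (adjusted p = 0.096) and *Mcm6* at 0.23 (adjusted p = 0.24). Of 23 CDK inhibitors, G1 cyclins and p53 targets 6 rose and 3 fell (median 0.741), shares not far from the 18.2% called higher and 15.1% called lower over all genes. *Ccnd2*, the cyclin D of neural progenitors, fell from 775, 792 and 766 CPM to 70.8, 63.4 and 91.8 CPM (-3.37, SE 0.38, adjusted p = 1.2e-06), and the inhibitors *Cdkn2a* and *Cdkn2b* rose by 2.29 and 2.33. Of 15 stress response genes 8 rose and none fell (median 1.45), with heme oxygenase *Hmox1* at 2.44 and the immediate early gene *Fos* at 2.18, while *Hspa5* of the endoplasmic reticulum (0.30) and *Atf4* (-0.40) were not called. Glycolysis and hypoxia genes fell in 11 of 22 cases with 1 rise (median -0.985). *Bnip3*, a hypoxia-induced mitophagy receptor, was at 244, 288 and 231 CPM in WT and 46.4, 44 and 47.4 CPM in MBD2t (-2.47, SE 0.42, adjusted p = 6.6e-05), and the glycolytic enzyme *Tpi1* and the oxygen sensor *Egln3* fell by 1.57 and 1.61. A test against a minimum change of 1 called 3 members of this list in place of 12.

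Set against the *Mbd3* KO, from which it was made, few genes of the MBD2t line passed the test. At the same thresholds 4 of 16582 genes were called (0.0241%), 1 higher (0.00603%) and 3 lower (0.0181%) in MBD2t, and 571 genes had an unadjusted p under 0.05 (3.44%). *Mbd2* was the gene called higher, with a log2 fold change of 2.36 (95% interval 1.90 to 2.82, adjusted p = 2.4e-05), and it was called under every alternative tried. *Vgf*, which encodes a neuropeptide precursor, was at 4.08, 4.59 and 4.25 CPM in MBD2t and 12.6, 9.27 and 10.7 CPM in the *Mbd3* KO, with WT at 1.42, 1.95 and 0.950 CPM. The MBD2t libraries lay between the other lines without overlap (-1.33 against the *Mbd3* KO, 95% interval -1.72 to -0.95, adjusted p = 0.005). *Cyp24a1*, the vitamin D catabolic enzyme, was at 2.79, 2.73 and 2.95 CPM in MBD2t and 3.77, 6.95 and 8.22 CPM in the *Mbd3* KO (-1.17, adjusted p = 0.037), with 0, 1 and 4 counts in the WT libraries. *Psg17*, a pregnancy-specific glycoprotein outside the rule for naming genes and chosen after its values were seen, had 2, 3 and 1 counts in MBD2t and 11, 15 and 11 in the *Mbd3* KO (adjusted p = 0.037).

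**Figure D5:**
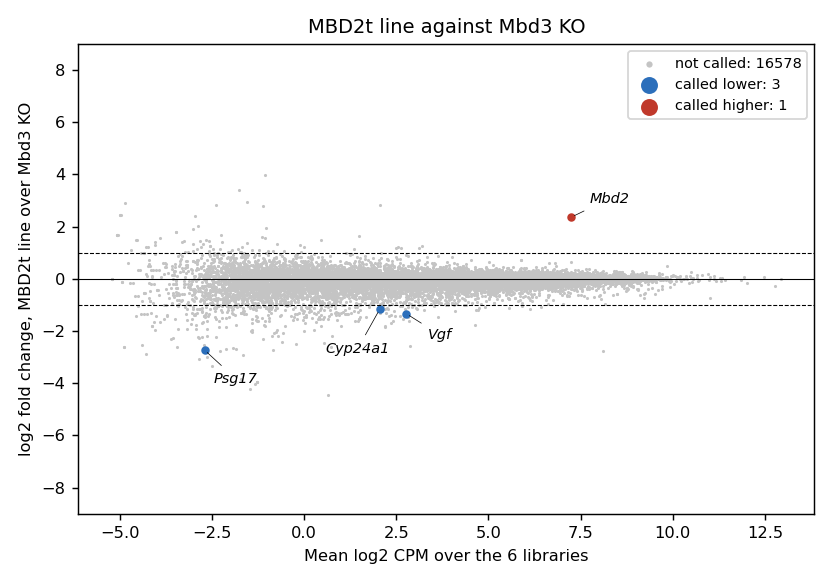
Log2 fold change (MBD2t line over *Mbd3* KO, y axis, same scale as against WT) of 16582 genes against their mean log2 CPM over the 6 libraries (x axis), with dashed lines at 1 and -1. The 4 called genes are named: *Mbd2* at 2.36 is the 1 called higher, and *Vgf*, *Cyp24a1* and *Psg17* are called lower.

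The number of calls in this comparison depended on single libraries. It was 39 (1 higher, 38 lower) without *Mbd3* KO library s04, 2 without s05, 2 without s06, 1 without MBD2t library s22, 2 without s23 and 2 without s24. *Cyp24a1* and *Psg17* were lost in each of these but the first. *Lars2*, which was among the largest differences in CPM, was at 3068, 188 and 171 CPM in the *Mbd3* KO and 202, 144 and 153 CPM in MBD2t, and library s04 alone carried the difference (adjusted p = 0.66). DESeq2 called 3 genes, *Mbd2*, *Vgf* and *Rmrp*, the last with 44.7, 0.819 and 0.979 CPM in the *Mbd3* KO. A gene that was not called is not thereby shown to be equal. The 95% interval of the log2 difference lay within 1 of 0 for 12232 genes (73.8%), and for 2862 of the 5531 genes called against WT (51.7%), while for the other 2669 the interval reached further.

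For the genes that mark the state of the line, the values of MBD2t and *Mbd3* KO stood side by side as follows. *Neurog1* was at 1.79, 1.80 and 2.37 CPM in MBD2t and 1.03, 1.86 and 1.96 CPM in the *Mbd3* KO (log2 difference 0.29, 95% interval -0.95 to 1.53). *Pax6* was at 17.6, 16.7 and 20.3 and 3.52, 12.2 and 14.2 CPM (0.86, -0.08 to 1.80), with s04 lowest. The libraries overlapped for *Neurog1* and not for *Pax6*, as they did not for 19% of all genes, and both intervals were wide. *Cd24a*, with a narrower interval, was at 231, 226 and 262 and 183, 260.5 and 276 CPM (0.00, -0.37 to 0.37). *Pou5f1* was at 114, 117 and 96.3 and 176, 95.3 and 55 CPM (0.00, -1.51 to 1.52), a gene for which the *Mbd3* KO libraries spread more than the MBD2t libraries. *Klf4* was at 41.5, 45 and 40.4 and 44.5, 41.2 and 44.2 CPM (-0.04, -1.31 to 1.24). *Sohlh1* was at 95.4, 120.0 and 167 and 144, 144 and 125 CPM (-0.11, -0.66 to 0.45). *Isg15* was at 28.4, 32.7 and 28.8 and 36.9, 28.3 and 28 CPM (-0.05, -1.25 to 1.15). All 3 of these genes overlapped between the lines.

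Over the lists, apart from *Mbd2* in the NuRD list no member was called between MBD2t and the *Mbd3* KO. The medians of the log2 difference were -0.00488 for postmitotic neuron genes, 0.205 for proneural factors, 0.00724 for pluripotency genes and -0.117 for interferon-stimulated genes, beside -0.0129 over all genes tested. The lowest medians were those of primitive and parietal endoderm (-0.479), visceral endoderm (-0.43) and glycolysis and hypoxia genes (-0.333). Without library s04 the median was -0.607 for primitive and parietal endoderm, -0.233 for visceral endoderm, -0.0279 for glycolysis and hypoxia genes, 0.545 for pluripotency genes, -0.311 for postmitotic neuron genes and 0.0502 for proneural factors. Without library s06 the last pair of medians was 0.349 and 0.399. Germline genes had a median of 0.235. *Igf2*, at 1664, 1653 and 1491 CPM in MBD2t and 3075, 2098 and 2819 CPM in the *Mbd3* KO, was among the largest differences in CPM without passing the test (-0.73, -1.78 to 0.31), although the libraries did not overlap, as they did not for 19% of all genes. *Cdkn1c*, at 459, 528 and 439.6 and 539, 764 and 1068 CPM, and *Stra8*, at 1047, 1096 and 1127 and 662, 892 and 752 CPM, were other such genes, lower and higher in MBD2t.

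Read by chromosome over genes of a mean log2 CPM of at least 2, the median log2 fold change against WT was -0.268 for chromosome 1, the lowest of the autosomes, and between -0.193 and -0.0218 for the others. Relative to the WT mean, the median over chromosome 1 was -0.239, -0.248 and -0.245 in the MBD2t libraries and -0.552, -0.287 and -0.196 in the *Mbd3* KO libraries, with s04 lowest. The part of this shift in the calls was not tested.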

How the data were processed

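The authors deposited whole-number counts of reads per gene for 25400 genes, made by trimming with Trim Galore (0.6.6), alignment with STAR to mm9 and counting with QuasR over GENCODE annotation; the libraries were directional and single-end, and the strand setting of the counting was not given in the sources used here. Counts of all 24 libraries were taken as deposited and entered 1 fit with line as the only factor, in edgeR (4.0.16, R 4.3.3): filterByExpr by line left 16582 genes, TMM scaling was used, and glmQLFit and the quasi-likelihood F test gave p-values, adjusted by the Benjamini-Hochberg method. Calls needed an adjusted p below 0.05 together with a log2 fold change larger than 1 in size. The SE was obtained as the size of the log2 fold change over the square root of its F value. Log2 fold changes carry the prior count of the fit. Library totals of the 9 libraries described ran from 34446766 to 46121563. Wilson intervals and limits for 0 counts cover counting error only. Intervals of log2 differences rest on the SE of the fit and so include the spread among libraries. Alternatives were DESeq2 (1.42.0), RLE and unscaled fits, other filters and thresholds, the legacy test, the compared lines alone and each library left out; the procedure was tested on simulated data. Named genes were the construct and targeted genes, the genes the study names, the 8 largest rises and falls at a mean log2 CPM of at least 2, the 5 largest rises and falls in mean CPM, and up to 4 called and 2 uncalled members per list; other members were named after their values were seen. The comparison, the 33 gene lists and the motifs were chosen with earlier results of these data known. RefSeq promoter entries (GRCm38.p6) were matched by symbol for 34 of 46 interferon-stimulated and 31 of 36 germline genes. Some members of the lists, counted above, are not reported here by name.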

Additional observations from a re-analysis of the deposited data

How the results depend on the processing

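Against WT, a test with the fold threshold built in (glmTreat) called 3474 genes and the adjusted p alone 9911, as follows from their construction, while leaving out 1 library at a time gave 5064 to 5820 calls and the other alternatives 4769 to 5807. With glmTreat the calls of *Mbd3*, *Cd24a*, *Nanog*, *Igf2*, *Aldh1a2*, *Foxa2*, *Ifnlr1*, *Zbtb38*, *Tuba1c*, *Tubb5* and *Egln3* were among those lost. Scaling by library size only moved the median of all genes from -0.0358 to 0.122 and gave 61.8% of calls as higher in place of 54.7%; under it *Mbd3* (-0.91), *Tubb5* (-0.85) and *Cd24a* (-0.98) lost their calls. Against the *Mbd3* KO, 1 gene was called with only the compared lines, 2 with library size only, 1 with the legacy test, 2 without a filter and 1 with glmTreat, *Mbd2* in each, and leaving out 1 library gave 1 to 39 calls; the cause was not tested. *Vgf* lost its call with only the compared lines (adjusted p = 0.101), the legacy test (0.0529) and without MBD2t library s22 (0.0582). With limits of 0.4 and 0.65 in place of 0.48 and 0.75, the share of genes called higher was 35.9% at low, 20.9% at intermediate and 9.58% at high CpG content and the share called lower 12.8%, 19.6% and 14.1%. Over single genes and alternatives 3205 values kept their side of the threshold, 59 lost and 46 gained a call, and none changed direction while called. Depth limited genes with few counts, such as *Psg17*, and the 3 MBD2t libraries, being of a single clone, limit all comparisons of that line. No paired analysis was possible because the count columns carry a library number and a line but no replicate number.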

Other observations

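Of 3 tested Y-linked genes 1, *Uty*, was called lower in MBD2t than in WT (median log2 fold change of the 3 genes -1.18) and none was called against the *Mbd3* KO (median 1.26). The call of *Uty* was lost under DESeq2 (adjusted p = 0.0717), the legacy quasi-likelihood test of edgeR (0.0763) and glmTreat (0.284), and without WT library s01 (0.0855) or any 1 of the MBD2t libraries s22, s23 and s24 (0.0704, 0.054 and 0.0565). With only the 2 lines compared all 3 genes were called, *Eif2s3y* and *Uty* lower and *Ddx3y* higher, and with library size only *Ddx3y* was called in addition to *Uty*. *Eif2s3y*, a translation factor subunit, was at 29.1, 17.4 and 20.7 CPM in WT, 10.04, 10.6 and 8.997 CPM in MBD2t and 6.86, 4.76 and 1.27 CPM in the *Mbd3* KO. *Ddx3y*, an RNA helicase, was at 7.49, 9.60 and 4.94 CPM in WT, 15.6, 13.9 and 14.6 CPM in MBD2t and 7.89, 7.37 and 3.17 CPM in the *Mbd3* KO. *Uty*, a histone demethylase relative, was at 17.6, 13.9 and 9.25 CPM in WT, 4.66, 5.33 and 5.26 CPM in MBD2t and 1.94, 2.04 and 0.899 CPM in the *Mbd3* KO. For all 3 genes the MBD2t libraries lay above the *Mbd3* KO libraries, and 19% of all genes tested had no overlap between these lines. The 3 genes share the Y chromosome and the MBD2t libraries are of a single clone, so they are not separate observations.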
